A study of Mus musculus with 11 samples.

Results

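The nuclear genes for the subunits of oxidative phosphorylation were examined in AML12 cells, a mouse hepatocyte line, in lines labelled KO, WT and KI for *Txndc5*. Genes were chosen by symbol alone, namely those whose names begin with Nduf, Uqcr, Cox4 to Cox8 or Atp5 and the 4 genes *Sdha*, *Sdhb*, *Sdhc* and *Sdhd*. Of 96 matching names, 90 had at least 10 counts in 3 or more of the 11 libraries, against 14036 of the 24849 genes of the whole table. These 90 members comprised 37 subunits of complex I, 4 of complex II, 8 of complex III, 12 of complex IV and 17 of complex V, which are 78 structural subunits, together with 8 complex I assembly factors of the Ndufaf series, the copies *Ndufb4b* and *Ndufb4c*, and the complex IV relatives *Cox7a2l* and *Ndufa4l2*. The 6 names that stayed below the minimum were *Cox4i2*, *Cox6a2*, *Cox6b2*, *Cox7b2*, *Cox8b* and *Cox8c*, most of them forms known from muscle, lung or testis. The data comprise polyadenylated RNA of 4 KO libraries, 3 WT libraries and 4 KI libraries. The KO line was made by CRISPR/Cas9 cutting in exon 5 of *Txndc5* with insertion of a puromycin selection cassette, and its genotype is labelled a knockdown. KI cells, labelled a knockin, are described as overexpressing TXNDC5 from the ROSA26 locus, and WT cells are labelled as wild type. The labels give no treatment for any group. Whether the libraries of a line came from separate cultures is not stated, so the p-values measure only the spread between these libraries. Any effect of clonal selection cannot be told apart from that of the genotype.

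Oxidative phosphorylation takes place in the inner mitochondrial membrane. Complex I (NADH dehydrogenase) and complex II (succinate dehydrogenase) pass electrons through ubiquinone to complex III (cytochrome bc1), and cytochrome c carries them to complex IV (cytochrome c oxidase), which reduces oxygen. Complexes I, III and IV pump protons, and complex V (ATP synthase) uses the resulting gradient to make ATP. Most subunits are encoded in the nucleus, whereas a small set, not analysed here, is encoded by mitochondrial DNA. Hepatocytes are rich in mitochondria and spend much of this ATP on glucose, urea and lipid synthesis.

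The libraries held between 29840366 and 38422243 counts. *Txndc5* itself, a disulfide isomerase of the endoplasmic reticulum, was counted 364, 287, 430 and 408 times in KO libraries 5, 6, 7 and 8, 3299, 3429 and 4046 times in WT libraries 5-6, 7 and 8, and 5654, 6511, 6723 and 5344 times in KI libraries 5, 6, 7 and 8. The KO libraries were far below both other lines, and no group overlapped with another on this scale. *Txndc5* fell by 3.82 on the log2 scale in KO against WT (SE 0.15, adjusted p = 4.09e-08, edgeR quasi-likelihood test). In KI against WT its log2 fold change was 0.24 with TMM scaling (SE 0.12, adjusted p = 0.136, edgeR) and 0.57 with scaling by library totals, where it passed the test (adjusted p = 0.00623, edgeR). On the TMM scale the KI libraries lay between 158.1 and 179.5 CPM and the WT libraries between 138.4 and 147.1, without overlap, and whether reads of the added copy count towards the mouse gene is not stated. Values below keep this library order and are TMM-scaled CPM, that is counts per unit of library size after a scaling set on the bulk of the genes.

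The hepatocyte label was checked against 11 markers, all of which were measured. *Krt8*, an epithelial keratin and the most abundant of them over all libraries pooled, had mean levels of 2660 CPM in KO, 2839 in WT and 4357 in KI, and *Alb*, albumin, 4115, 512.7 and 245.8 CPM in the same order. Of the 11, 6 rose and 3 fell in KO against WT, 5 rose and 2 fell in KI against WT, and 4 rose and 6 fell in KO against KI. Fibroblast markers summed to at most 1.65 CPM and endothelial markers to at most 0.425 CPM in any library, with *Col3a1* and *Tek* at 0 throughout. The 5 macrophage markers summed to 1.318, 1.747, 1.65 and 2.209 CPM in KO, 6.732, 9.199 and 8.604 in WT and 2.601, 3.694, 3.476 and 5.656 in KI, the most abundant being *Cd68*, while *Adgre1* was at 0 throughout. These sums were highest in WT without overlap, as were many members below, and both macrophage markers tested fell in KO against WT. The 4 cholangiocyte markers summed to 1221, 1086, 1156 and 1130 CPM in KO, 1091, 861.0 and 1029 in WT and 951.0, 968.6, 973.8 and 709.6 in KI, chiefly from *Krt19*, with *Epcam* at 0 throughout, and in KO against WT 1 of the 3 tested rose and 2 fell. The part of other cell types in the members' changes was not tested.

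The 3 WT libraries stood apart from one another. Summed over all members, the level was 20640, 17970 and 13960 CPM in the WT libraries, 12690, 11150, 11240 and 9937 CPM in the KO libraries and 12650, 13870, 12010 and 14820 CPM in the KI libraries. On this scale all 3 WT sums lay above every KO sum, but the sums over all genes tested had a like order, at 1345000, 1225000 and 1056000 CPM in WT and 883500 to 953500 CPM in KO. With library totals the members summed to 15340, 14670 and 13210 CPM in WT and 11240 to 13300 CPM in KO, and the lines overlapped. The genes of cytosolic ribosomal proteins fell in the same order among the WT libraries, with sums of 125500, 103100 and 73180 CPM. A single newly assembled entry took a share of 17.1%, 13.8% and 11.3% in the WT libraries, of at most 6.44% in the KO and of at most 9.12% in the KI libraries. In bulk RNA such as this, fewer cells of a type and less RNA per cell cannot be told apart.

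**Figure D1:**
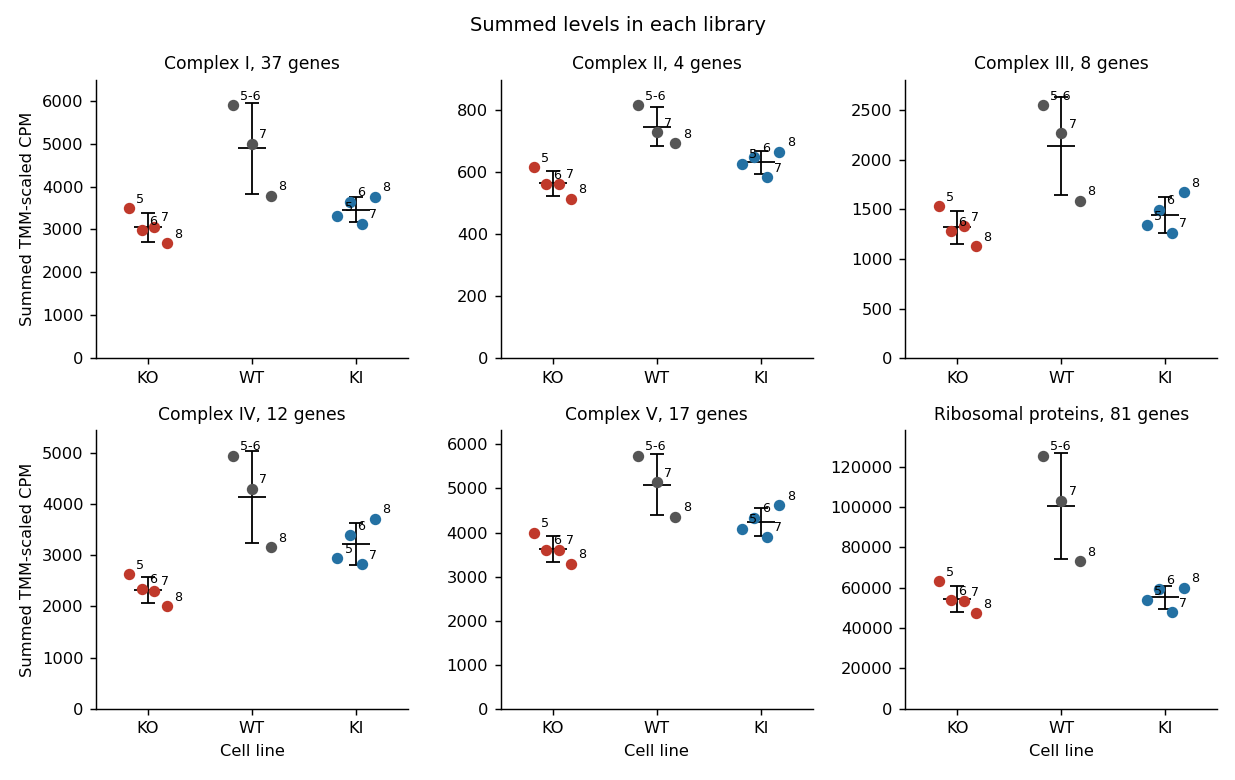
Summed level (TMM-scaled CPM, linear axes from 0) of the members by complex and of the cytosolic ribosomal protein genes; each point is a library, labelled by its number, and the lines give the mean and SD of the group. Complex IV sums ranged from 2008 to 2635 CPM in KO, from 3160 to 4946 in WT and from 2825 to 3714 in KI.

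Genes of this pathway are textbook targets of NRF1 and of the ETS factor GABP. The promoter windows of RefSeq (mouse GRCm38.p6, 250 bases before to 50 after the transcript start) were found for 75 of the 90 members, and 15 had none. The NRF1 motif GCGCATGCG, on either strand, occurred in 10 of the 75 genes (13.3%) and in 1.95% of all 27025 genes with a window. The ETS motif CCGGAAG, on either strand, occurred in 19 member genes (25.3%) and in 9.93% of all genes. At least 1 of the motifs was present in 33.3% of the 75 member genes and in 11.5% of all genes with a window. For complex I this was 6 of 33 genes (18.2%), for complex II 2 of 3 and for complex III 3 of 5. For complex IV it was 3 of 10 and for complex V 7 of 15. All genes with a window include genes below the count minimum that the members had to pass, so these shares are not of like sets. A match is a description of these letters and not a binding site. To show what the motifs look like in members that recur in the results, the 100 bases just before the start of 5 genes are given 5′ to 3′ on the gene's strand, with the motif in capitals. They are *Atp5g2* (chr15:102671048-102671147, minus strand) and *Ndufa8* (chr2:36049339-36049438, minus) with the NRF1 motif, and *Sdhd* (chr9:50603850-50603949, minus), *Cox6a1* (chr5:115348959-115349058, minus) and *Uqcrh* (chr4:116075071-116075170, minus) with the ETS motif. In *Atp5g2* a match on each strand overlaps the other.
Atp5g2: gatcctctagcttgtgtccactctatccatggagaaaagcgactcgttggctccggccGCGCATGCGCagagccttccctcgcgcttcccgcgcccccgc
Ndufa8: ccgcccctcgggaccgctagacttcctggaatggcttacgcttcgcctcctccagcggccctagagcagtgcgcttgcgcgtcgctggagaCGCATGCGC
Sdhd: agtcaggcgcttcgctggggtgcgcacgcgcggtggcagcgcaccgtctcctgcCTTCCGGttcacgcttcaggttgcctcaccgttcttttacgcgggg
Cox6a1: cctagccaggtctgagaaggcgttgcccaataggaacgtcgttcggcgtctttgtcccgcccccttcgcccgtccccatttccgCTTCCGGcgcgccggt
Uqcrh: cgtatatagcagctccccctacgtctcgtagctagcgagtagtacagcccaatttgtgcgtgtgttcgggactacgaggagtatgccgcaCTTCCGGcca

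More members were lower than higher in KO than in WT cells. Of 90 members tested, 46 fell and 4 rose (adjusted p under 0.05, edgeR quasi-likelihood test), where 55.1% of all 13359 genes were called, 28.4% lower and 26.7% higher, and the median log2 fold change was -0.42 for the members and -0.03 for all genes. One of the 4, *Ndufa4l2*, also counted among the risers in KO against KI, had counts in the KO libraries alone and passed the count minimum only through them, so its calls are no support. All KO libraries lay below all WT libraries for 40 members and above them for 6, against 27.1% and 28.2% of all genes. In KI against WT, which shares the WT libraries with the former comparison, 28 of 89 members fell and 3 rose, where 42.3% of all 13534 genes were called, 21.0% lower and 21.2% higher, with medians of -0.33 and -0.02. Without overlap, 26 members were lower and 4 higher in KI than in WT, against 21.3% and 23.4% of all genes. KO and KI were then compared without any WT library, and 34 of 90 members fell and 8 rose in KO against KI, where 54.0% of all 13269 genes were called, 27.0% lower and 27.0% higher, with medians of -0.19 and 0.00. Without overlap, 27 members were lower and 7 higher in KO than in KI, against 24.4% and 24.2% of all genes.

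The comparisons with WT depended on the scaling. When libraries were scaled by their totals, the median over all genes shifted to 0.38 in KO against WT, to 0.31 in KI against WT and to 0.06 in KO against KI. The members' median then became 0.02 in KO against WT, with 21 of 90 higher and 33 lower, where 42.5% of all genes were higher and 15.9% lower. It became 0.00 in KI against WT, with 13 of 89 higher and 11 lower, where 34.1% of all genes were higher and 10.6% lower. Relative to all genes, the members' median in KO against WT was -0.39 with TMM and -0.36 with library totals. Between KO and KI, 11 members were higher and 28 lower with library totals, with a median of -0.13, where 29.7% of all genes were higher and 23.2% lower. Statements on overlap between libraries are on the TMM scale. With library totals, 27 members lay lower and 20 higher without overlap in KO against WT, 11 and 14 in KI against WT, and 26 and 8 in KO against KI. Of all genes, 16.4% lay lower and 41.8% higher without overlap on that scale in KO against WT. In KI against WT these shares were 11.7% and 35.8%, and in KO against KI 21.5% and 26.3%. Without WT library 8, the members that fell numbered 58 in KO and 49 in KI against WT and 8 rose in KO, while without WT library 7 40 and 18 fell and without WT library 5-6 38 and 18. Of all genes, 4108 of 13664 fell and 4341 rose in KO without WT library 8, and 3368 of 13837 fell in KI. Without WT library 7 these falls were 3104 of 13646 and 2136 of 13862. Without WT library 5-6 they were 3325 of 13704 and 2385 of 13893. The members' median in KI against WT was -0.19 without WT library 5-6, and 1 member rose there without KI library 5, KI library 6 or WT library 7. In these fits 2248 of 13371, 2314 of 13379 and 2140 of 13862 of all genes rose.

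**Figure D2:**
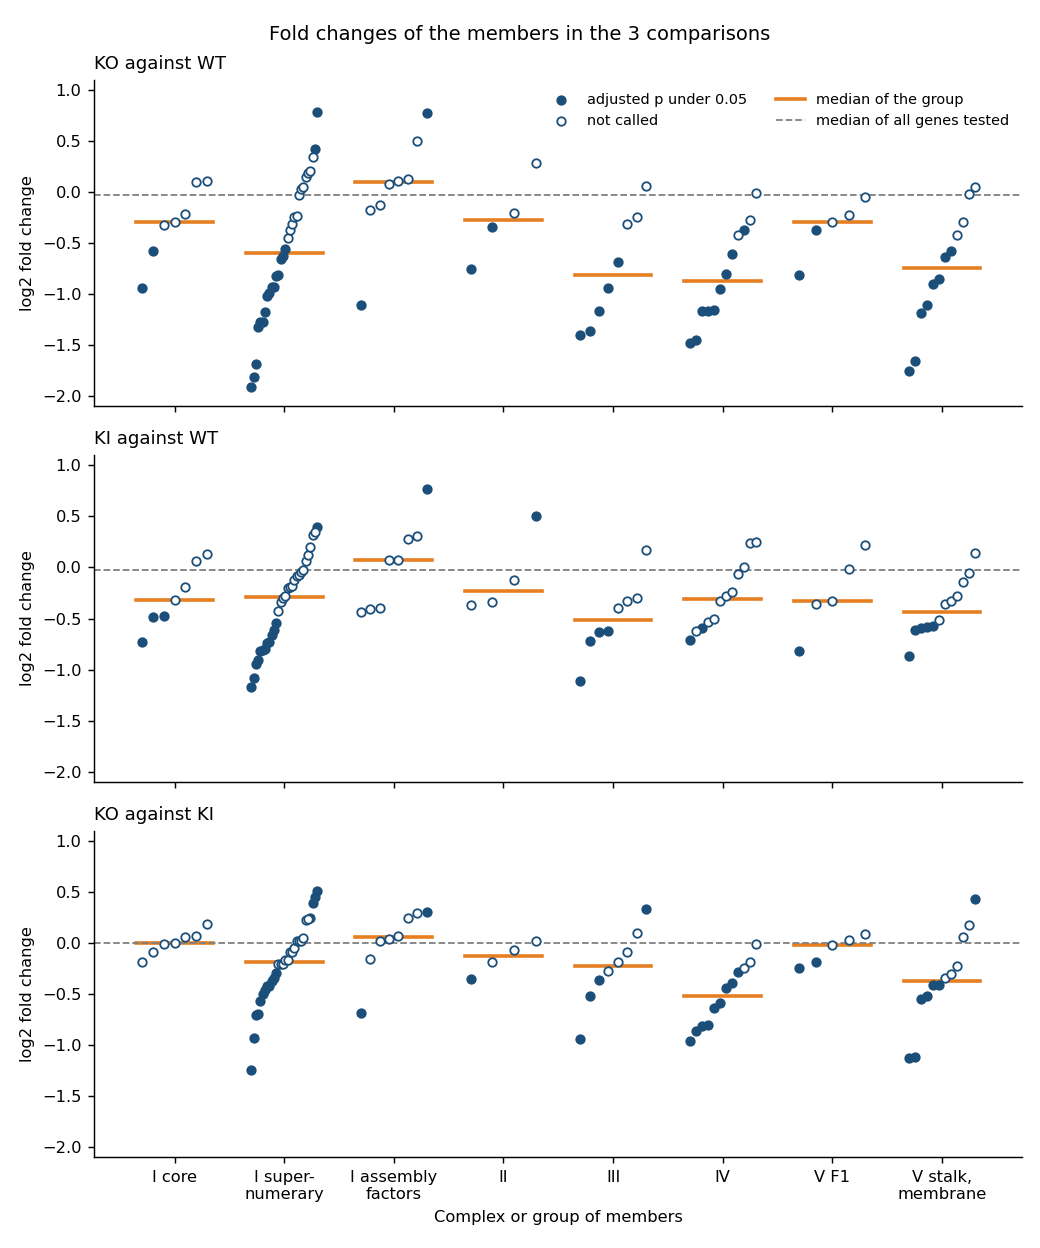
log2 fold change of each structural subunit and Ndufaf assembly factor (points, TMM scaling) by complex in the 3 comparisons, with filled points for an edgeR adjusted p under 0.05, the group's median as an orange line and the median of all genes as a dashed line; *Ndufa4l2*, *Cox7a2l*, *Ndufb4b* and *Ndufb4c* are not drawn. The median of complex IV was -0.87 in KO against WT, -0.31 in KI against WT and -0.51 in KO against KI.

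Complex I holds 7 nuclear core subunits, which carry the flavin and iron-sulfur centres. In KO against KI, none of the 7 passed the edgeR test in either direction and their log2 fold changes ran from -0.19 to 0.19, with SEs of at most 0.13. Under the alternatives tried, at most 1 core gene was higher and none lower in KO against KI. Against WT, *Ndufs8* and *Ndufv2* fell in KO, with log2 fold changes of -0.58 and -0.94, and *Ndufs3*, *Ndufs8* and *Ndufv2* fell in KI, with -0.49, -0.48 and -0.73. The core falls in KO against WT were 4 without WT library 8 or with DESeq2 and 1 without WT library 5-6 or 7, and those in KI against WT were 4 without WT library 8. With DESeq2, 4104 of all 13359 genes fell in KO against WT. The core medians of -0.29 in KO and -0.32 in KI against WT were -0.16 and -0.18 without WT library 5-6, and the latter was -0.50 without WT library 8. With library totals the core median turned to 0.15 in KO against WT, where 2 rose and 1 fell, and to 0.03 in KI against WT, where 1 rose and none fell, and the calls of *Ndufs8* in both comparisons and of *Ndufs3* and *Ndufv2* in KI were lost. Without WT library 5-6, *Ndufs8* was at -0.37 in KO and -0.28 in KI, *Ndufs3* at -0.35 in KI and *Ndufv2* at -0.55 in KI against WT, none of them called. Without WT library 7 the calls of *Ndufs8* in both comparisons (-0.57 and -0.48) and of *Ndufv2* in KI (-0.65) were lost, and that of *Ndufs8* in KI was lost also without KI library 5, 6 or 7 (-0.49, -0.50 and -0.40).

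The core subunit *Ndufv2* stood at 208.3, 164.7, 186.1 and 135.0 CPM in KO, 403.7, 363.4 and 219.8 in WT and 190.9, 200.3, 161.4 and 241.9 in KI. Its KO libraries lay below all WT libraries, and the KI group overlapped with both. *Ndufs8* stood at 127.5, 114.0, 99.71 and 90.8 CPM in KO, 200.0, 157.7 and 121.6 in WT and 118.0, 120.2, 96.39 and 125.1 in KI, with overlap between all groups. *Ndufs3* stood at 86.16, 73.97, 78.47 and 68.07 CPM in KO, 113.1, 85.5 and 85.76 in WT and 68.98, 74.11, 64.11 and 61.86 in KI. For this gene all KI libraries lay below the WT libraries. The NADH-binding *Ndufv1* stood at 87.84, 95.8, 93.86 and 97.75 CPM in KO, 92.68, 71.3 and 94.11 in WT and 93.95, 96.11, 95.77 and 71.83 in KI. *Ndufs7* stood at 57.39, 52.77, 45.97 and 50.63 CPM in KO, 55.77, 38.86 and 48.12 in WT and 53.73, 54.34, 52.72 and 47.14 in KI. These 2 genes overlapped in all groups and passed no test. *Ndufs1* stood at 189.3, 154.4, 172.7 and 143.6 CPM in KO, 235.5, 213.4 and 146.9 in WT and 163.1, 150.7, 145.8 and 176.2 in KI. The *Ndufs1* groups overlapped and no comparison of this gene passed the test.

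Among the 30 supernumerary subunits, which surround the core and stabilise it, 16 fell and 2 rose in KO against WT (edgeR), with a median of -0.60. With library totals 12 fell and 9 rose, with a median of -0.17. Without WT library 8, 20 fell and 5 rose, without KO library 6 or 7 or WT library 7, 1 rose, and without WT library 5-6 the median was -0.39. The deepest fall of all members was that of *Ndufa6*, a subunit of the LYR family and the complex I gene with most counts per kilobase over all libraries pooled, although *Ndufb11* was slightly above it per kilobase in KO. *Ndufa6* stood at 150.1, 120.8, 130.4 and 93.31 CPM in KO, 545.3, 521.8 and 302.7 in WT and 174.3, 205.6, 176.6 and 256.5 in KI. The 3 groups did not overlap, with KO lowest and WT highest. It fell by 1.91 in KO against WT (SE 0.22, adjusted p = 3.81e-05, edgeR), fell by 1.17 in KI against WT (SE 0.21, adjusted p = 0.00078, edgeR) and fell by 0.71 in KO against KI (SE 0.14, adjusted p = 0.000592, edgeR). *Ndufs4*, a subunit of the NADH-oxidising arm, stood at 59.61, 47.23, 51.34 and 40.13 CPM in KO, 207.3, 199.2 and 105.6 in WT and 76.22, 79.12, 69.26 and 99.23 in KI. This was the same order without overlap, with log2 fold changes of -1.81, -1.08 and -0.70 in the 3 comparisons (SE 0.22, 0.21 and 0.13).

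*Ndufb1*, a small subunit of the membrane arm, showed the deepest fall in KO against KI. It stood at 12.76, 13.65, 12.03 and 10.31 CPM in KO, 50.47, 40.43 and 25.28 in WT and 26.15, 28.86, 22.24 and 38.14 in KI. All KO libraries lay below the rest, while WT and KI overlapped. It fell by 1.69 in KO against WT (SE 0.21, adjusted p = 7.25e-05, edgeR) and fell by 1.24 in KO against KI (SE 0.15, adjusted p = 8.01e-06, edgeR), and its log2 fold change in KI against WT was -0.43 (SE 0.23, adjusted p = 0.149, edgeR). Its chromosome, 12, had a median over all its genes of -0.36 in KO against WT and -0.42 in KO against KI. The part of this shift in the result was not tested.

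The supernumerary genes that rose in KO against WT were *Ndufab1* and *Ndufa10*. *Ndufab1*, the mitochondrial acyl carrier protein, which also serves fatty acid and lipoate synthesis, stood at 72.93, 72.76, 78.35 and 72.3 CPM in KO, 39.28, 46.08 and 42.53 in WT and 44.87, 59.74, 59.41 and 52.91 in KI. All KO libraries lay above the others. It rose by 0.78 in KO against WT (SE 0.12, adjusted p = 0.000232, edgeR) and by 0.45 in KO against KI (SE 0.10, adjusted p = 0.00132, edgeR). The median of all genes on its chromosome, 7, was 0.52 in the first comparison and 0.44 in the second, and how far that bears on *Ndufab1* was not tested. *Ndufa10* rose by 0.42 in KO against WT (SE 0.14, adjusted p = 0.0213, edgeR) and its call was lost when KO library 6 or 7 or WT library 7 was left out (0.42, 0.41 and 0.31). In KO against KI it rose by 0.39 (SE 0.08, adjusted p = 0.000675, edgeR).

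*Ndufa8*, a subunit with twin CX9C motifs on the intermembrane side, was higher in KO than in KI. It stood at 72.45, 72.05, 78.35 and 70.71 CPM in KO, 61.3, 62.5 and 71.56 in WT and 51.77, 55.47, 52.17 and 46.68 in KI. KO and KI did not overlap, and the log2 fold change was 0.51 (SE 0.09, adjusted p = 0.000131, edgeR), beside a median of 0.38 over all genes of its chromosome, 2. In KI against WT the supernumerary gene that rose was *Ndufs5*, by 0.40 (SE 0.13, adjusted p = 0.0276, edgeR), a call lost without KI library 5, 6 or 7 (0.42, 0.37 and 0.41), while 12 fell. Among these *Ndufa2* fell by 0.95 (SE 0.19, adjusted p = 0.00173, edgeR). The supernumerary median in KI against WT was -0.29 and turned to 0.07 with library totals, with 6 lower and 5 higher. It was -0.11 without WT library 5-6, and the falls were 8 without WT library 7. Between KO and KI, 12 supernumerary genes fell and 4 rose in KO, the others that rose being *Ndufa10*, *Ndufab1* and, by 0.25 (SE 0.10, adjusted p = 0.0442, edgeR), the membrane-arm subunit *Ndufb10*. The *Ndufb10* groups overlapped, and its call was lost without KO library 5, 6 or 7 or KI library 7. It was lost also with DESeq2 size factors, with no filter on low counts and with all 11 libraries in one fit.

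Of the 8 Ndufaf assembly factors 1 rose and 1 fell in KO against WT, with a median of 0.10. The gene that rose, *Ndufaf4*, which acts in an early assembly intermediate of complex I, stood at 41.5, 38.59, 37.54 and 31.16 CPM in KO, 29.74, 16.95 and 18.2 in WT and 42.49, 37.16, 31.18 and 35.92 in KI. All KO and KI libraries lay above the WT libraries and the 2 modified lines overlapped. It rose by 0.77 in both KO against WT (SE 0.20, adjusted p = 0.00655, edgeR) and KI against WT (SE 0.20, adjusted p = 0.00768, edgeR), comparisons that share the WT libraries. Without WT library 7 the KI change was 0.62 (adjusted p = 0.0524, edgeR). The log2 fold change of *Ndufaf4* in KO against KI was 0.02 (SE 0.11, adjusted p = 0.878, edgeR). *Ndufaf8* fell by 1.11 in KO against WT. *Ndufaf4*, *Sdhb* and *Ndufs5* lie on chromosome 4, whose median over all genes was 0.30 in KO against WT and 0.17 in KI against WT.

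Complex II, the only complex of the pathway encoded wholly in the nucleus, had 2 genes that fell in KO against WT, 1 that rose in KI against WT and 1 that fell in KO against KI. These are 50.0%, 25.0% and 25.0% of its 4 genes, beside 55.1%, 42.3% and 54.0% of all genes called in either direction. *Sdha*, the flavoprotein, stood at 233.4, 222.6, 224.1 and 206.0 CPM in KO, 276.6, 270.7 and 280.2 in WT and 213.3, 208.6, 199.0 and 253.4 in KI. All WT libraries were highest, and *Sdha* fell by 0.34 in KO against WT (SE 0.11, adjusted p = 0.0231, edgeR) with TMM, whereas the change was 0.07 with library totals. This call of *Sdha* was lost without KO library 6, 7 or 8 or WT library 7, with log2 fold changes of -0.34, -0.34, -0.30 and -0.32, and with no filter on low counts (-0.32, adjusted p = 0.0581, edgeR). *Sdhb*, the iron-sulfur subunit, stood at 73.77, 69.21, 72.05 and 71.73 CPM in KO, 64.38, 47.21 and 63.45 in WT and 89.59, 96.35, 78.38 and 64.68 in KI. It was higher in KI than in WT libraries without overlap, by 0.50 (SE 0.17, adjusted p = 0.0286, edgeR), a call lost without KI library 5 or 6 or WT library 7 (0.45, 0.41 and 0.36). The KO libraries of *Sdhb* also lay above all WT libraries, with a log2 fold change of 0.28 (SE 0.13, adjusted p = 0.0834, edgeR). The membrane anchor *Sdhc* stood at 65.39, 72.05, 72.44 and 71.84 CPM in KO, 62.28, 69.28 and 109.9 in WT and 72.44, 79.04, 70.67 and 74.45 in KI, with WT library 8 alone high and no call. The other anchor, *Sdhd*, had most counts per kilobase and stood at 244.2, 196.9, 195.0 and 164.8 CPM in KO, 413.7, 342.8 and 240.4 in WT and 252.8, 264.0, 235.5 and 274.5 in KI. Its groups overlapped, and it fell by 0.75 in KO against WT (SE 0.19, adjusted p = 0.00594, edgeR) and fell by 0.35 in KO against KI (SE 0.11, adjusted p = 0.0109, edgeR). The first of these calls of *Sdhd* was lost with library totals and the second with all 11 libraries in one fit (-0.36, adjusted p = 0.0673, edgeR). The median of the 4 genes was -0.27 in KO against WT with TMM and turned to 0.12 with library totals, and it was -0.10 without WT library 8. With library totals 1 of them rose and none fell in KO against WT. Without WT library 5-6 or 8, 1 rose there and 2 fell. The falls were 2 in KI against WT without WT library 8, and 2 in KO against KI without KI library 8.

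In complex III, 5 of 8 subunits fell in KO against WT, *Uqcr10*, *Uqcr11*, *Uqcrb*, *Uqcrfs1* and *Uqcrh*, and 4 in KI against WT, *Uqcrb*, *Uqcrc2*, *Uqcrfs1* and *Uqcrh*, with medians of -0.81 and -0.51 (-0.38 and -0.16 with library totals). With library totals 4 fell and 1 rose in KO, and 2 fell and 1 rose in KI against WT, and without WT library 8 the falls in KI were 7. Between KO and KI, *Uqcr10*, *Uqcr11* and *Uqcrb* fell and *Uqcrc2*, a core protein of the matrix side, rose by 0.33 (SE 0.10, adjusted p = 0.0103, edgeR), a call lost with all 11 libraries in one fit, and the falls were 5 without KO library 5. The chromosome of *Uqcrc2*, 7, had a median of 0.44 over all its genes in KO against KI. The hinge protein gene *Uqcrh* stood at 192.7, 149.2, 159.0 and 117.2 CPM in KO, 467.0, 470.9 and 263.2 in WT and 164.3, 192.1, 153.0 and 236.0 in KI. WT libraries were highest without overlap, and KO and KI overlapped. *Uqcrh* fell by 1.40 in KO against WT (SE 0.22, adjusted p = 0.000325, edgeR) and fell by 1.11 in KI against WT (SE 0.21, adjusted p = 0.00129, edgeR), and its log2 fold change between KO and KI was -0.27 (SE 0.15, adjusted p = 0.138, edgeR). *Uqcr10*, a small transmembrane subunit, stood at 127.1, 103.8, 100.3 and 87.58 CPM in KO, 333.6, 282.7 and 178.9 in WT and 176.0, 209.3, 165.9 and 253.9 in KI. Here the KO libraries alone were low, and *Uqcr10* fell by 0.94 in KO against KI (SE 0.13, adjusted p = 3.15e-05, edgeR). Its chromosome, 11, had a median of -0.27 over all its genes in that comparison. *Uqcrq*, which had most counts per kilobase in this complex over all libraries pooled, although *Uqcrh* had more in WT, stood at 260.0, 238.0, 219.0 and 201.0 CPM in KO, 341.0, 257.5 and 208.5 in WT and 190.7, 235.2, 188.2 and 242.8 in KI, with overlap everywhere and no call.

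Of the 5 complexes, complex IV had the largest share of called members in KO against KI. Of its 12 subunits 9 fell and none rose (75.0%, beside 27.0% of all genes), with a median of -0.51 that was -0.45 with library totals, and between 7 and 11 fell under the alternatives tried. The summed level was 2323 ± 256.8 CPM (SD, n = 4) in KO, 3217 ± 411.1 (SD, n = 4) in KI and 4135 ± 904.5 (SD, n = 3) in WT, and the KO and KI libraries did not overlap. In KO against WT, 9 subunits fell and none rose, with a median of -0.87 and of -0.44 with library totals. In KI against WT, 2 fell, *Cox6a1* and *Cox8a*, and the median of -0.31 turned to 0.04 with library totals, where 2 rose and none fell. The falls in KI against WT were 6 without WT library 8, 5 without KI library 8, and 5 with DESeq2 or with all 11 libraries in one fit. Of all genes, 2728 of 13385 fell without KI library 8, 3245 of 13534 with DESeq2 and 3177 of 13534 with all 11 libraries. The complex IV median in KI against WT was -0.18 without WT library 5-6.

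*Cox4i1*, the widely expressed form of the regulatory subunit 4, stood at 266.4, 234.2, 234.7 and 230.3 CPM in KO, 361.4, 349.3 and 378.2 in WT and 336.3, 381.1, 353.2 and 386.6 in KI. KO libraries lay below all others, while WT and KI overlapped. It fell by 0.61 in KO against WT (SE 0.12, adjusted p = 0.00109, edgeR), although with library totals the change was -0.20 (adjusted p = 0.196, edgeR). In KO against KI it fell by 0.59 (SE 0.08, adjusted p = 3.09e-05, edgeR), and its chromosome, 8, had a median of -0.27 over all its genes there. *Cox4i2*, its lung and hypoxia-linked counterpart, had at most 12 counts in any library.

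*Cox7a2*, the form of subunit 7a typical of liver, stood at 113.9, 101.8, 94.82 and 71.77 CPM in KO, 301.2, 306.0 and 182.1 in WT and 167.9, 190.1, 162.1 and 228.0 in KI. *Cox7a1*, the form of heart and muscle, stood at 7.711, 5.597, 6.421 and 5.431 CPM in KO, 16.27, 12.91 and 12.78 in WT and 10.32, 11.41, 12.02 and 12.13 in KI. In both genes the KO libraries were lowest without overlap. *Cox7a2* fell by 0.96 in KO against KI (SE 0.13, adjusted p = 2.55e-05, edgeR) and *Cox7a1* fell by 0.86 (SE 0.15, adjusted p = 0.000149, edgeR). Their chromosomes, 9 and 7, had medians of -0.23 and 0.44 over all their genes in that comparison. Per length, *Cox7a1* made up 8.44% to 11.3% of the counts of this pair in KO, 6.61% to 10.5% in WT and 8.19% to 11.1% in KI, and the groups overlapped. *Cox7a2l*, a relative that joins complexes III and IV in supercomplexes, stood at 232.0, 183.2, 197.4 and 159.5 CPM in KO, 461.3, 368.2 and 230.8 in WT and 170.0, 181.5, 156.4 and 211.6 in KI. KO overlapped with WT library 8 and KI with KO, and its change in KO against KI was 0.11 (SE 0.12, adjusted p = 0.463, edgeR). It fell by 0.89 in KO against WT (SE 0.21, adjusted p = 0.00431, edgeR) and fell by 0.98 in KI against WT (SE 0.20, adjusted p = 0.0022, edgeR).

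*Cox8a*, the ubiquitous form of subunit 8, had the most counts per kilobase of all members. It stood at 422.5, 387.6, 353.3 and 327.8 CPM in KO, 1119.0, 732.4 and 631.5 in WT and 492.0, 574.3, 478.0 and 481.4 in KI. The groups did not overlap, with KO lowest and WT highest, and *Cox8a* fell by 1.17 in KO against WT (SE 0.19, adjusted p = 0.000408, edgeR), fell by 0.71 in KI against WT (SE 0.19, adjusted p = 0.00943, edgeR) and fell by 0.44 in KO against KI (SE 0.10, adjusted p = 0.00143, edgeR). Its chromosome, 19, had medians of -0.34, -0.22 and -0.09 over all its genes in these comparisons. *Cox6a1*, the liver form of subunit 6a, stood at 198.3, 178.3, 173.1 and 176.5 CPM in KO, 346.4, 290.3 and 301.1 in WT and 193.9, 222.0, 195.8 and 218.7 in KI. Both modified lines lay below WT, with log2 fold changes of -0.80 and -0.59 (SE 0.12 and 0.13, both called by edgeR), and KO and KI overlapped. The muscle form *Cox6a2* had no counts in KO and WT libraries and 6, 10, 5 and 13 counts in KI. The KI mean was at least 2.01-fold above the level that 3 counts per WT library would give. Striated muscle markers summed to between 3.14 and 4.20 CPM in KO, 5.84 and 7.67 in WT and 12.21 and 34.18 in KI, with *Tnnt2* the most abundant. *Tnnt2* rose in KI against WT, while *Ckm*, *Myh7* and *Myh6* were at 0 in all KO and WT libraries. *Myh6* was tested only through its counts in KI, so its call is no support. The part of these markers in the *Cox6a2* counts was not tested. *Cox6b1*, a subunit of the intermembrane side, stood at 277.5, 255.4, 253.6 and 215.8 CPM in KO, 373.5, 267.6 and 251.5 in WT and 252.5, 277.5, 220.7 and 258.7 in KI, and passed no test. With library totals the KI calls of *Cox6a1* and *Cox8a* were lost, and without WT library 5-6 *Cox8a* was at -0.43 in KI against WT.

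*Ndufa4*, long counted to complex I and since placed in complex IV, stood at 257.2, 218.2, 214.5 and 173.0 CPM in KO, 346.4, 331.4 and 177.5 in WT and 302.0, 345.3, 271.2 and 426.5 in KI. KO was below KI without overlap, and *Ndufa4* fell by 0.64 in KO against KI (SE 0.14, adjusted p = 0.00109, edgeR), and the comparisons with WT passed no test. *Ndufa4l2*, its relative known as a target of hypoxia-inducible factor, was counted 63, 52, 16 and 50 times in KO and never in the other 7 libraries. The mean KO level of 1.23 CPM was at least 10.3-fold above the level that 3 counts per library would give in WT. It was at least 14.7-fold above that level in KI. KO library 7 lay lowest of the KO libraries, at 0.48 CPM. Per length *Ndufa4l2* was at most 0.34% of the *Ndufa4* and *Ndufa4l2* counts in any KO library. Of 9 hypoxia-response genes 7 fell and none rose in KO against WT (6 and 1 with library totals), 3 fell and 1 rose in KI against WT, and 5 fell and 1 rose in KO against KI. The extremes were *Car9*, a carbonic anhydrase, which fell by 2.51 in KO against WT, and *Bnip3*, a mitophagy receptor, which fell by 1.91 in KI against WT.

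**Figure D3:**
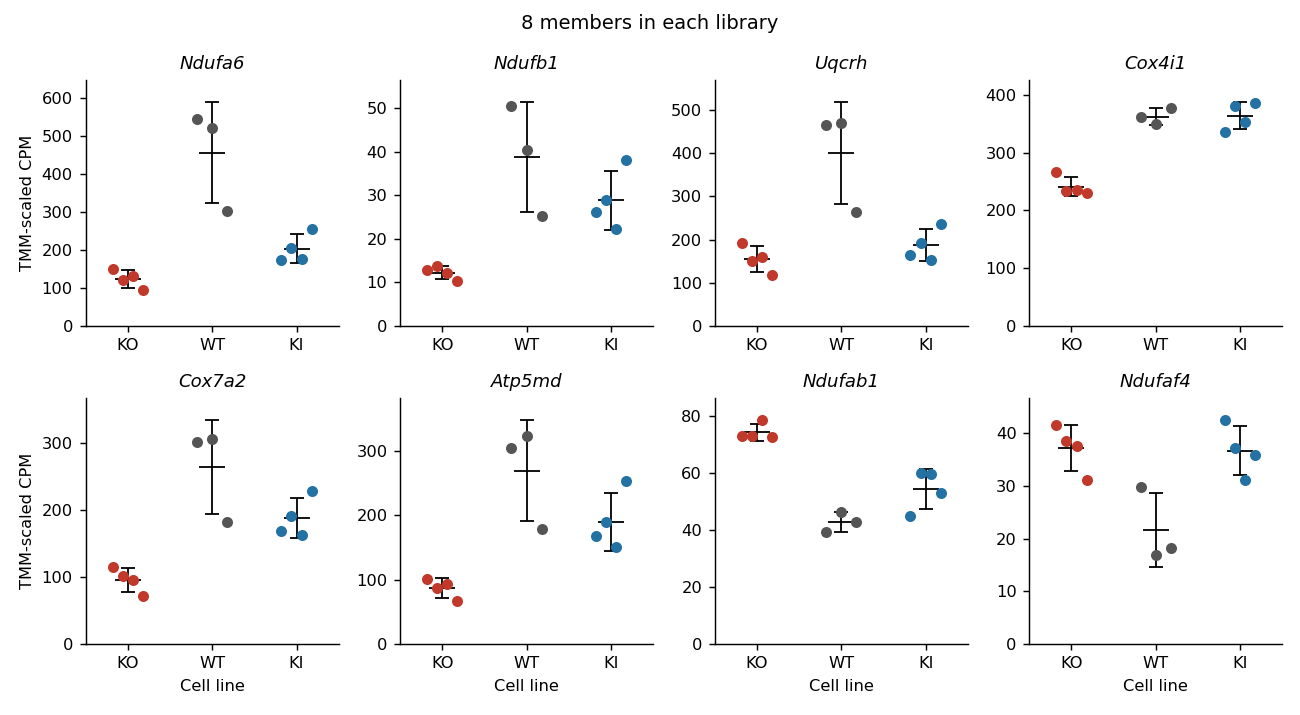
Levels (TMM-scaled CPM, linear axes from 0) of 8 members in each library, with the mean and SD of each group. *Ndufb1*, *Cox4i1*, *Cox7a2* and *Atp5md* were lowest in the KO libraries without overlap, *Uqcrh* was highest in WT, *Ndufab1* was highest in KO and *Ndufaf4* was lowest in WT.

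In complex V, the 5 genes of the catalytic F1 part and the 12 of the stalks and membrane part were described apart. Of the F1 genes *Atp5c1*, the rotating central shaft, and *Atp5e* fell in KO against WT, with log2 fold changes of -0.81 and -0.37, *Atp5c1* in KI against WT, with -0.82, and *Atp5a1* and *Atp5b*, the catalytic ring, in KO against KI, with -0.19 and -0.24. Over all genes, the chromosomes of *Atp5a1* and *Atp5b*, 18 and 10, had medians of -0.37 and -0.06 in KO against KI. The median of the F1 genes in KO against KI was -0.02. None of them fell there with library totals or without KO library 7, with medians of 0.04 and 0.03, and 1 fell without KO library 6 or 8 or KI library 5, 6 or 7. With library totals 1 F1 gene fell and 1 rose in KO against WT and likewise in KI against WT. The F1 falls in KO against WT were 1 without KO library 5, 7 or 8 or WT library 5-6 or 8, and those in KI against WT were 2 without KI library 8. With DESeq2 the F1 falls were 4 in KO and 3 in KI against WT, where 4104 of 13359 and 3245 of 13534 of all genes fell. Of the stalk and membrane genes 8 fell in KO against WT, 5 in KI against WT (*Atp5g2*, *Atp5h*, *Atp5j*, *Atp5j2* and *Atp5mpl*) and 6 in KO against KI, where the median was -0.37 (-0.31 with library totals) and 1 gene rose. The F1 median in KO against WT was -0.29 and turned to 0.12 with library totals, and that of the stalk and membrane genes was -0.75 and -0.31, where 6 fell and 2 rose. In KI against WT the stalk and membrane median was -0.43 and became -0.08 with library totals, where 1 fell and 1 rose, and the falls were 2 without WT library 5-6 or 7, 3 without KI library 5 and 9 without WT library 8.

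*Atp5md*, a small membrane subunit (DAPIT) linked to the pairing of ATP synthases, stood at 101.2, 86.35, 93.17 and 65.97 CPM in KO, 304.9, 324.2 and 179.3 in WT and 167.3, 190.4, 150.3 and 253.2 in KI. The KO libraries lay below all others, and WT and KI overlapped. It fell by 1.66 in KO against WT (SE 0.21, adjusted p = 7.83e-05, edgeR) and fell by 1.13 in KO against KI (SE 0.15, adjusted p = 1.86e-05, edgeR). Its chromosome, 19, had medians of -0.34 and -0.09 over all its genes in these comparisons. *Atp5mpl*, another small membrane subunit, had log2 fold changes of -1.75 and -1.12 in these comparisons (SE 0.20 and 0.12, both called by edgeR), and lies on chromosome 12 like *Ndufb1*. In KI against WT *Atp5mpl* fell by 0.61 (SE 0.22, adjusted p = 0.0411, edgeR), and these groups overlapped. That call was lost with library totals, limma voom or a replicate block. It was lost also without KI library 5, 6 or 7 or WT library 5-6 or 7. The gene that rose in KO against KI was *Atp5o*, the oligomycin-sensitivity subunit of the peripheral stalk, by 0.43 (SE 0.10, adjusted p = 0.00187, edgeR), and the median of all genes on its chromosome, 16, was 0.51.

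The genes *Atp5g1*, *Atp5g2* and *Atp5g3* encode the same mature subunit c of the membrane rotor and differ in their import sequences, and their near-identical coding parts make the split of reads uncertain. *Atp5g2* stood at 191.2, 164.8, 176.9 and 158.1 CPM in KO, 422.0, 393.1 and 290.2 in WT and 252.6, 251.0, 205.0 and 282.2 in KI. *Atp5g1* stood at 88.29, 77.79, 82.79 and 64.75 CPM in KO, 115.5, 79.41 and 88.95 in WT and 96.42, 107.7, 99.29 and 113.9 in KI. *Atp5g3* stood at 233.4, 212.5, 208.3 and 187.9 CPM in KO, 220.7, 197.9 and 213.2 in WT and 197.4, 211.0, 186.4 and 217.1 in KI. The 3 groups did not overlap for *Atp5g2*, with KO lowest, whereas they overlapped for *Atp5g3*. *Atp5g2* fell by 1.11 in KO against WT (SE 0.15, adjusted p = 0.00011, edgeR), fell by 0.57 in KI against WT (SE 0.16, adjusted p = 0.0137, edgeR) and fell by 0.52 in KO against KI (SE 0.10, adjusted p = 0.000484, edgeR), and the KI call against WT was lost with library totals and without WT library 5-6 (-0.46) or 7 (-0.52). *Atp5g1* fell by 0.41 in KO against KI, and *Atp5g3* had log2 fold changes of -0.02, -0.05 and 0.06 with SEs of at most 0.13. Chromosome 11, which holds *Atp5g1*, had a median of -0.27 over all its genes in KO against KI. Per length, *Atp5g2* made up 47.9% ± 1.04 (SD, n = 4) of subunit c counts in KO, 64.5% ± 4.58 (SD, n = 3) in WT and 54.9% ± 2.1 (SD, n = 4) in KI, a share that does not depend on the scaling. The share of *Atp5g3* was 36.0% ± 0.819, 23.2% ± 3.32 and 27.9% ± 1.09 in the same order.

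**Figure D4:**
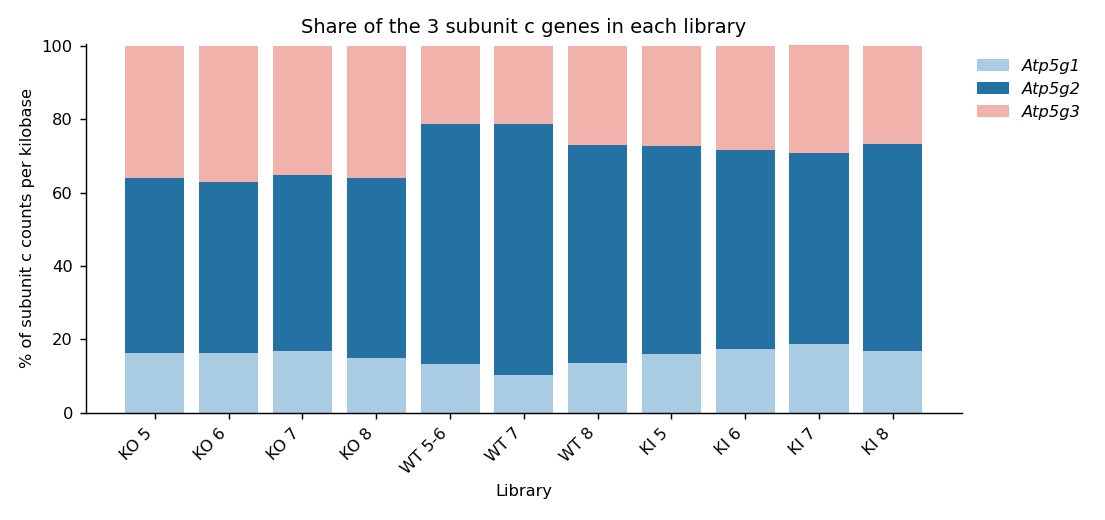
Share of the counts per kilobase of the 3 subunit c genes in each library (stacked bars, percent, axis from 0). *Atp5g2* ranged from 46.6% to 49.1% in KO, from 59.5% to 68.5% in WT and from 52.1% to 56.6% in KI.

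Levels within the complexes varied widely. Per kilobase and over all libraries, the median level was 84.5 CPM for 36 complex I genes with a length, 72.0 for complex II, 268 for complex III, 412 for complex IV and 283 for complex V. Complex IV spanned from *Cox7a1* at 26.1 CPM per kilobase to *Cox8a* at 992.

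The members are short genes, which the choice by name did not use. Of 87 members with a transcript length, 49.4% were under 750 bases, against 3.58% of 12081 genes tested. In KO against WT the median log2 fold change was -0.83 for 14 members under 500 bases and -0.25 for 16 members of 1000 to under 1500 bases, and for genes of these lengths that are neither members nor cytosolic ribosomal protein genes -0.51 and -0.12. Under 500 bases, the median was -1.04 for 18 ribosomal protein genes and -0.67 for all 110 genes. In KO against KI these medians were -0.44 and 0.04 for the members and -0.13 and -0.01 for the same other genes. The KI against WT medians were -0.33 and -0.41 for the members and -0.43 and -0.15 for the others. Across members, Spearman's rho between length and log2 fold change was 0.39 (n = 87) in KO against WT, 0.12 (n = 86) in KI against WT and 0.47 (n = 87) in KO against KI, beside 0.15, 0.16 and 0.05 across all 12081, 12184 and 12060 genes with a length. These points share libraries and are given as a description. The cytosolic ribosomal protein genes are short as well, with 51.2% under 750 bases. Of 81 tested, 61 fell and 1 rose in KO against WT, 60 fell and none rose in KI against WT, and 21 fell and 14 rose in KO against KI, with medians of -0.89, -0.85 and -0.07. With library totals these medians were -0.44, -0.49 and 0.00. The part of transcript length in the members' fold changes was not tested.

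**Figure D5:**
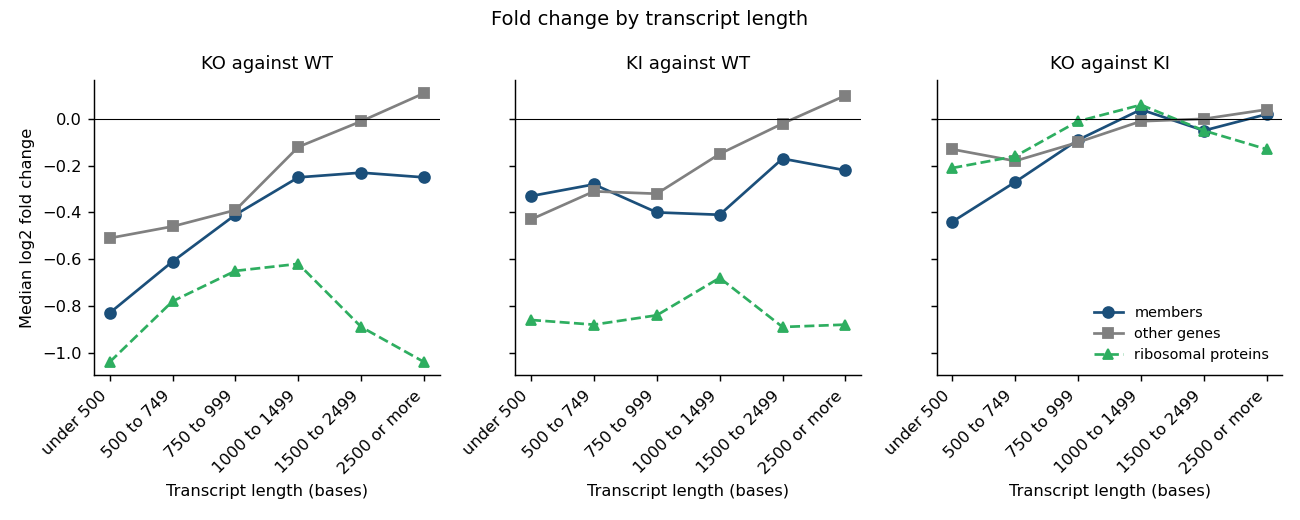
Median log2 fold change (TMM scaling) by transcript length in bases, for the members (circles), the cytosolic ribosomal protein genes (triangles) and all other genes tested (squares), in the 3 comparisons. In KO against KI the members under 500 bases had a median of -0.44 and other genes of that length -0.13.

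Other genes of the pathway were taken from lists. Of all genes tested, 26.7% rose and 28.4% fell in KO against WT. In KI against WT the shares were 21.2% and 21.0%, and in KO against KI 27.0% and 27.0%. With library totals they were 42.5% and 15.9%, 34.1% and 10.6%, and 29.7% and 23.2%. These shares are the background for the counts of each list and complex, and a count near them is no result about its genes. Among 5 further subunits and electron carriers, 1 fell in KO against WT, *Etfa*, the carrier of electrons from fatty acid oxidation, which fell by 1.05 (SE 0.15, adjusted p = 0.000136, edgeR). Among 41 assembly factors outside the rule, 11 rose and 15 fell in KO against WT and 2 rose and 10 fell in KI against WT, and with library totals 17 rose and 8 fell in KO against WT and 12 rose and 4 fell in KI against WT. *Lyrm7*, a complex III assembly factor, fell by 2.65 and *Cox18*, which inserts a complex IV subunit, rose by 1.15 in KO against WT. Of 13 genes of the TCA cycle, which supplies the electrons, 3 rose and 3 fell in KO against WT, with *Cs*, citrate synthase, higher by 0.77 on the log2 scale. In KI against WT 3 rose and 2 fell, with *Idh3a*, a subunit of the NAD-dependent isocitrate dehydrogenase, higher by 1.15. With library totals 9 rose and 2 fell in KO and 7 rose and 1 fell in KI against WT. Between KO and KI, 14 of the assembly factors rose and 12 fell, 2 of the TCA cycle genes rose and 4 fell, and 1 of the further subunits and carriers rose and 2 fell.

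Of 15 regulators of mitochondrial biogenesis, 6 rose and 1 fell in KO against WT, 4 rose and none fell in KI against WT and 6 rose and 2 fell in KO against KI. *Pprc1*, a coactivator of the PGC-1 family, had mean levels of 39.89 CPM in KO, 16.77 in WT and 37.51 in KI, and rose by 1.23 in KO (SE 0.21, adjusted p = 0.000548, edgeR) and by 1.16 in KI (SE 0.16, adjusted p = 0.000155, edgeR) against WT. *Esrra*, a nuclear receptor that acts on respiratory genes, fell by 0.94 in KO against WT (SE 0.12, adjusted p = 9.16e-05, edgeR). Chosen after their values were seen because their motifs were counted above, *Nrf1* and *Gabpa* had log2 fold changes of 0.07 (SE 0.12, adjusted p = 0.645, edgeR) and 0.64 (SE 0.14, adjusted p = 0.00208, edgeR) in KO against WT. Of all genes with a window, 11.5% held either motif. Of 28 members with a window that fell in KO against KI, 25.0% held either motif, and of 41 that were not called, 41.5%. In KO against WT the shares were 32.5% of 40 members that fell and 34.4% of 32 not called. Of 14 carriers, porins and import genes, 4 rose and 8 fell in KO against WT, with log2 fold changes of 1.72 for *Tomm40*, the import channel, and -1.16 for *Tomm20*, an import receptor. With library totals 5 rose and 1 fell. Of these genes 4 rose and 3 fell in KI against WT, and 2 rose and 7 fell in KO against KI.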

How the data were processed

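The 4 KO, 3 WT and 4 KI libraries of AML12 cells were made from polyadenylated RNA, after selection of fragments by size. The authors deposited a table of raw counts per gene, made by their sequencing provider without normalization. The submitters' processing notes name HISAT2, TopHat2, Bowtie2 and StringTie. The genome build and the strand setting are not given in the sources used here. Of 26472 lines 10 with broken annotation were left out, and the remaining 26462 entries, 2960 of them newly assembled, were summed by gene name to 24849 genes, 1131 names having several entries. Another 11 columns of FPKM and the columns of the authors' own DESeq2 comparisons, which hold fold changes and p-values, were not used, and 0 columns of other samples were present.

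Genes passing filterByExpr of edgeR were scaled by TMM and tested per pair of lines with edgeR's robust quasi-likelihood test (R 4.3.3, edgeR 4.0.16), with Benjamini-Hochberg adjustment over all genes tested and calls at an adjusted p under 0.05. A log2 fold change comes from this fit, its SE from the fold change and the F statistic. Levels used a single TMM scaling of all 11 libraries. Alternatives used DESeq2 1.42.0, limma 3.58.1, other scalings and filters, and left out single libraries. Python 3.11.15 with pandas 2.3.3 and matplotlib 3.10.9 made summaries and figures. The edgeR fit of KO against WT was tested on simulated counts in which a small part of the genes changed. That test did not cover the dependence on scaling or the other steps. Transcript lengths and promoters came from annotations of mouse GRCm38. A floor of 3 counts per library was used for lower bounds and covers counting error only.

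The members and the gene lists were chosen with earlier results of these data known. Genes named are, per comparison, the 5 members that rose most and the 5 that fell most among those called, the member of each complex with most counts per kilobase, isoform families, complex II and the complex I core, *Txndc5*, most members behind counts of 5 or fewer, and the extremes of each related list. The values of 1 core gene are not reported here.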

Additional observations from a re-analysis of the deposited data

Results flagged for a closer look

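In groups of 4 libraries, a library was singled out where its gap to the nearest other exceeded Dixon's critical value. Of 61 groups tested 3 were singled out, and chance gives about 1 in 20, or 3.05. *Cox4i1* was 266 CPM in KO library 5 and 230 to 235 CPM in the other KO libraries (ratio of gap to range 0.879). *Cox8a* was 574 CPM in KI library 6 and 478 to 492 CPM in the other KI libraries (0.854). *Ndufab1* was 78.3 CPM in KO library 7 and 72.3 to 72.9 CPM in the others (0.897).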

How the results depend on the processing

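With scaling by library totals, the members called higher were 21 in KO against WT and 13 in KI against WT, and those called lower in KI against WT were 11. Medians became 0.02 for all members, -0.01 for complex I, 0.12 for II, -0.38 for III, -0.44 for IV and -0.14 for V in KO against WT, and 0.00, 0.05, 0.08, -0.16, 0.04 and -0.01 in KI against WT. The median of complex II in KO against KI became -0.07. *Sdha* in KO against WT became 0.07, and *Txndc5* in KI against WT passed the test at 0.57. This setting also raised the share of higher genes among all calls from 48.5% to 72.8% in KO against WT, from 50.2% to 76.3% in KI against WT and from 50.0% to 56.1% in KO against KI. With all 11 libraries in one fit, 5 of 90 members and 3096 of all 13269 genes were higher in KO against KI. Whether the replicate numbers pair the libraries is not settled. Correlations of same-numbered libraries ran from -0.19 to 0.214 and were over 0.1 in 2 pairs alone, both of KO with WT. These were KO 8 with WT 8 (0.214) and KO 5 with WT 5-6 (0.163), while differently numbered KO and WT libraries reached at most 0.054. Differently numbered KI and WT libraries reached 0.172. The fit with a replicate block is therefore given for its counts only. It had 60 members lower and 5 higher in KO against WT, 23 and 1 in KI against WT, and 28 and 7 in KO against KI. The block fit called 61.3%, 36.1% and 48.6% of all genes in the same order. Leaving out each library in turn, members called higher ranged from 3 to 8 in KO against WT, 1 to 4 in KI against WT and 6 to 9 in KO against KI, and those called lower from 38 to 58, 18 to 49 and 26 to 41. The share of all genes called ranged from 45.1% to 61.8%, 30.8% to 50.4% and 48.3% to 53.5% in the same order. Medians of all members ranged from -0.57 to -0.29, -0.49 to -0.19 and -0.23 to -0.14, of complex I from -0.65 to -0.24, -0.49 to -0.18 and -0.20 to -0.02, of II from -0.33 to -0.10, -0.28 to -0.08 and -0.19 to -0.08, of III from -0.92 to -0.62, -0.71 to -0.34 and -0.33 to -0.14, of IV from -0.97 to -0.74, -0.45 to -0.18 and -0.58 to -0.46, and of V from -0.74 to -0.36, -0.47 to -0.25 and -0.32 to -0.18. For the cases outside the scaling the cause was not tested. Of the values for named genes under alternatives, 883 kept their direction and side of the threshold, 47 lost the call and 1 changed sign.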
